A study of Mus musculus with 8 samples.

Results

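Ptger2, the gene deleted in these knockout mice, lies on mouse chromosome 14, and 49 coding genes listed on either side of it were examined in macrophage RNA of LPS-treated mice. The list runs from Cdhr1 and Ghitm before Ptger2 to Sall2 after it. Its members were the gene probes whose RefSeq transcript belongs to a listed gene: 66 of 39429 gene probes, for 48 of the 49 genes. Naa30 had no such probe, and both probes of Gpr137c were too dim to be tested, so 47 genes were measured among 20736 tested features. The list is not complete: 129 other coding genes lie between its first and last member in the gene order of assembly GRCm38.p6, 24 of them measured. Of the 47 genes, 44 were well above background on all 8 arrays. Cdhr1, Samd4 and Ccnb1ip1 passed through 1 genotype only, so their passing already depends on a difference.

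The arrays compared macrophages of wild-type mice (WT 1 to 4) with macrophages of EP2 knockout mice (EP2KO 1 to 4), all given LPS, the endotoxin of Gram-negative bacteria, and all labelled male. The sources used here do not state age, strain, allele design, dose or time of LPS, the organ the macrophages came from or whether controls were littermates. RNA had been labelled with Cy3 and hybridised to 1-colour Agilent arrays, 1 sample each. The labels do not say that replicates are separate mice, so any p-value measures only the spread between these samples. EP2 is a receptor for prostaglandin E2, and its signal runs through cyclic AMP.

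Neighbours of a targeted gene are a known concern in knockout work. A targeted allele is usually made in embryonic stem cells of 1 mouse strain and crossed into another, and the DNA on both sides of the target can stay that of the stem cell strain. Genes in such a stretch can then carry strain variants in their control regions, their coding parts or the letters under an array probe, whether or not the deleted gene acts on them. Whether EP2KO and WT mice differ in strain here was not tested, and an array cannot tell less RNA from poorer binding to a probe. The members were selected on position and on the genotype difference of these same arrays, which was known when the list was drawn up. Genotype differences of its members are therefore a description: calls among them are counted beside the share over all features, no p is given for a single member, and nothing is read from them. The slide comparison and the comparison of genotype differences between slides are tests.

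Arrays lay on 2 slides with 2 arrays of either genotype on each: WT 1, WT 2, EP2KO 1 and EP2KO 2 on slide 1, the others on slide 2. Both slides carried WT at positions 1 and 2 and EP2KO at 3 and 4, so array position and genotype cannot be told apart. Slides separated along principal component 1, with 61.0% of the variance. Signals had a 75th percentile of 987 to 1508, 25565 to 32156 of 39429 probes passed the well-above-background flag, and 0 spots were saturated. The number of arrays limits the precision. Of 10 macrophage markers, 9 were well above background on every array (the exception, Cd68, had no kept probe), and so were 10 of 10 fibroblast and mesothelial and 6 of 6 B cell markers. Median log2 differences (EP2KO over WT, no test) were also taken for markers of other cell types. The median was 2.06 for mast cells (5 of 5 measured markers higher in EP2KO) and 1.08 for large peritoneal macrophages (7 of 8). For fibroblasts and mesothelium it was -1.15 (1 of 10 higher), with 1.01 on slide 1 and -3.56 on slide 2. It was -1.12 for T and NK cells (0 of 8), -0.41 for B cells (0 of 6), -0.41 for neutrophils (1 of 5) and -0.04 for dividing cells (3 of 8). For macrophage markers it was 0.01 (5 of 9 higher). Their part in the differences of the neighbours was not tested. Both probes of Xist, made from the inactive X of female cells, were well above background on all 8 arrays, while the Y-linked Ddx3y, Eif2s3y and Kdm5d reached that on 0 arrays and Uty did on 1 array, which goes against the label male for both genotypes.

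Signals below are multiples of each array's 75th percentile, listed in the order of arrays 1 to 4. Differences are log2 EP2KO over WT, followed by ± and the standard error that limma fitted over all features (n = 4 per genotype). Ptger2 itself was at 0.972, 1.12, 0.899 and 1.0 in WT and at 0.357, 0.287, 0.323 and 0.224 in EP2KO. No EP2KO value reached the WT range, and the difference was -1.76 ± 0.17, with -1.71 on slide 1 and -1.82 on slide 2 (exact two-sided permutation p = 0.0286 over 70 arrangements, the smallest they can give). That permutation took no account of slide. In limma the adjusted p of Ptger2 over all features (Benjamini-Hochberg) was 0.0615, so Ptger2 was not called in the main fit. It was called with the slide as a block (limma adjusted p = 0.0328) but not with the replicate number as a block (limma adjusted p = 0.217). Over all alternatives run, its limma adjusted p lay between 0.0328 and 0.425. No source used here states if the probe of Ptger2 covers deleted sequence.

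Most neighbours of Ptger2 differed little between the genotypes, and a few differed by far more than the rest. Of the 47 measured genes, 19 were higher and 28 lower in EP2KO, with a median difference of -0.05 beside -0.03 over all features. The genotypes did not overlap for 8 of them, where 1.39% of all features had groups that do not overlap. In gene order these were Cdhr1, Samd4, Ttc5, Pnp, Ang and Tox4, all lower in EP2KO, and Rnase4 and Supt16, both higher. The lower ones compare with 0.955% of all features and the higher ones with 0.434%. Since the list was drawn up with this contrast known, nothing is read from these shares. At an adjusted p of 0.05 over all features (limma, Benjamini-Hochberg), 0 of 47 passed, where 0.00965% of all features did. At an unadjusted p under 0.05 there were 8 members (1.98% of all features), and 5 members differed by over 1 (3.60% of all features). With the slide as a block the counts were 0 (0.0193% of all features) and 10 (7.34%), and with the replicate number as a block 0 (0% of all features) and 10 (5.45%). On slide 2 alone 3 members passed the adjusted threshold (1.49% of all features) and without WT 2 it was 1 (0.0145%).

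**Figure D1:**
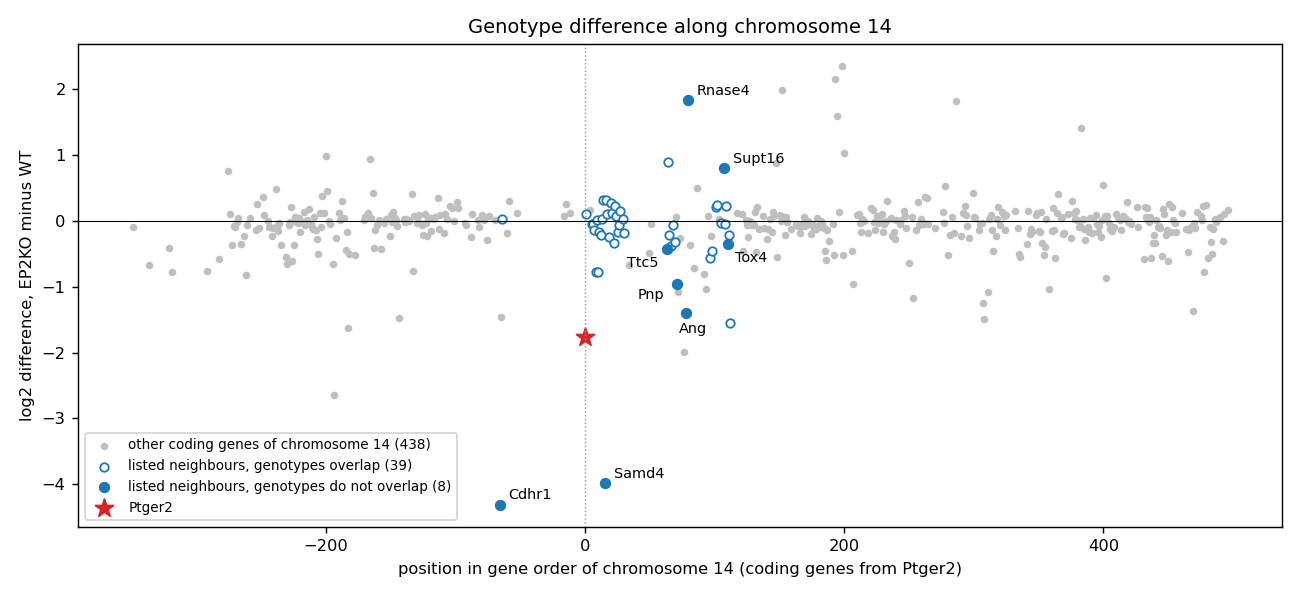
Log2 difference between EP2KO and WT (mean of 4 arrays each) for coding genes of chromosome 14, placed by their order from Ptger2; the dotted line marks Ptger2. Cdhr1 (-4.31) and Samd4 (-3.98) lie lowest, Rnase4 (1.83) is the highest neighbour, and most open circles lie close to 0.

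Genes that did not overlap are given here by their place along the list, beside 1.39% of all features. Since the list was drawn up with this contrast known, nothing is read from their placement. Both members before Ptger2, Cdhr1 and Ghitm, lie 66 and 64 coding genes away; Cdhr1 was one of the 8 and Ghitm, an inner mitochondrial membrane protein, was at 0.03 ± 0.12. Of the 25 measured genes of the stretch next to Ptger2, from Txndc16 to Ap5m1, Samd4 alone did not overlap, and the median absolute difference was 0.16. The remaining 6 lay among 20 measured genes of the far stretch, from Ttc5 (63 coding genes after Ptger2) to Sall2 (112), where the median absolute difference was 0.36. Over all features it was 0.11. The measured coding genes just outside the list were Ccser2 before Cdhr1 (0.02) and Olfr1509 after Sall2 (0.13).

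Nearest to Ptger2 in gene order, the measured neighbours overlapped between the genotypes. Txndc16, a thioredoxin-domain protein of the endoplasmic reticulum and the next coding gene after Ptger2, was at 1.45, 1.9, 1.78 and 1.81 in WT and at 1.84, 1.48, 1.95 and 2.25 in EP2KO. Its difference was 0.11 ± 0.17. Psmc6, an ATPase subunit of the proteasome, was at 3.29, 3.84, 3.71 and 3.01 in WT and at 3.5, 3.46, 3.34 and 3.02 in EP2KO (-0.05 ± 0.13). The genotypes overlapped for both genes. Styx, a catalytically inactive phosphatase relative, was at 0.379, 0.436, 0.509 and 0.474 in WT and at 0.382, 0.363, 0.484 and 0.514 in EP2KO (-0.05 ± 0.17). Gnpnat1, an enzyme of UDP-GlcNAc synthesis, was at 0.774, 0.624, 0.671 and 0.559 in WT and at 0.565, 0.64, 0.548 and 0.621 in EP2KO, a difference of -0.14 ± 0.14 (-0.07 by its other probe). No genotype gap was visible for either.

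Ang and Rnase4, neighbours in gene order that share an annotated start, differed in opposite directions. Both encode secreted ribonucleases of the RNase A family: Ang is angiogenin, which acts on blood vessel growth and cleaves tRNA, and Rnase4 prefers to cut after uridine. In mouse the pair is known to be transcribed from common promoters, with each protein encoded by its own last exon. The RefSeq table of GRCm38.p6 gives the same start for both genes and a further start for Rnase4. The 250 bases before each start are shown because the genes share 1 of them and differ in direction; they lie on the plus strand, at chr14:51090827-51091076 and chr14:51095750-51095999. Capitals mark 4 motifs on either strand: the CCAAT box, the GC box with the letters GGGCGG, the TATA box with the letters TATAAA, and the full cyclic AMP response element with the letters TGACGTCA; no match overlaps another in the windows shown.
Ang and Rnase4, shared start: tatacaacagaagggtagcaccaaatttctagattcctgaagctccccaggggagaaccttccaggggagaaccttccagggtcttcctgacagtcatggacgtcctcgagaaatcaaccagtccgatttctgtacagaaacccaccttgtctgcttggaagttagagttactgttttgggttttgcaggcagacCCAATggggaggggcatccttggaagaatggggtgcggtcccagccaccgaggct
Rnase4, second start: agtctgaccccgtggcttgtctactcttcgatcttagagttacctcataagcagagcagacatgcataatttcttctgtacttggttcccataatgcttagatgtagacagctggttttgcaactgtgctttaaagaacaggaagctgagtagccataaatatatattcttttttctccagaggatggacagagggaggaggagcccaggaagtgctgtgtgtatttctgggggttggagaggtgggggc
The shared window holds 1 CCAAT box and the window before the second start none of the 4 motifs. Over 32851 such windows of the table, 33.8% hold a CCAAT box, 32.7% a GC box, 12.4% a TATA box and 1.55% the full cyclic AMP response element. Among the 56 windows of the listed genes, 25 hold a CCAAT box, 37 a GC box, 6 a TATA box and 0 the cyclic AMP response element. A match is a description of letters, not of binding.

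Ang was at 0.389, 0.224, 0.482 and 0.324 in WT and at 0.103, 0.145, 0.137 and 0.14 in EP2KO. All 4 EP2KO arrays lay below the lowest WT array, with a difference of -1.39 ± 0.25 (a 2.63-fold lower signal) made of -1.28 on slide 1 and -1.51 on slide 2. Rnase4 was at 1.72, 0.729, 2.02 and 1.62 in WT and at 3.93, 5.25, 5.18 and 6.18 in EP2KO. Here every EP2KO array lay above the highest WT array, and the difference was 1.83 ± 0.33, a 3.56-fold higher signal, with 2.02 on slide 1 and 1.65 on slide 2. WT 2 was the lowest WT array for both genes. Without any 1 array the difference of Ang stayed between -1.6 and -1.23 and that of Rnase4 between 1.51 and 2.0. Each gene had 1 probe. Ang belongs to a family of close copies, so its probe may also bind RNA of other members.

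Of the other genes of the cluster, which are not on the list, 7 were measured and their genotypes overlapped. Ang4 was at -1.03 ± 0.33, with -1.03 and -1.03 on the slides, and Ang2 at -0.71 ± 0.38. Rnase12 was at -2.0 ± 0.85, Rnase6 at -0.37 and Rnase10 at -0.26. Rnase2a was at 0.51 ± 0.57 and Ear6 at 0.08 ± 0.33. In these bulk samples fewer cells of a type and less RNA per cell cannot be told apart. Markers of large peritoneal macrophages, 8 of 8 measured, summed to 125, 161, 83.4 and 75.5 in WT and to 189, 186, 113 and 128 in EP2KO; 7 of the 8 had a difference above 0, with a median of 1.08. Gata6, Timd4 and the other 6 were well above background on all arrays. The part of these cells in the Rnase4 difference was not tested.

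Cdhr1 and Samd4 were measured in WT and not well above background on any EP2KO array. Cdhr1, a cadherin best known from photoreceptor outer segments, was at 0.0458, 0.0132, 0.0648 and 0.0465 in WT and at 0.00206, 0.00154, 0.00195 and 0.00189 in EP2KO. The WT signal was dim, and WT 2 was the dimmest of the 4. Against the lowest signal that counts as measured on each EP2KO array, Cdhr1 was at least 5.0-fold lower in EP2KO. With normexp background correction the log2 difference was -1.34, smaller than that bound. The measured log2 means were -4.77 in WT and -9.08 in EP2KO.

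Samd4, an RNA-binding protein that represses translation of its target mRNAs, was at 0.0444, 0.0111, 0.066 and 0.0854 in WT and at 0.00151, 0.00468, 0.00167 and 0.00379 in EP2KO. It was at least 5.56-fold lower in EP2KO by the same bound, with measured log2 means of -4.61 and -8.6, and here too normexp gave a smaller difference, -1.35. As for Cdhr1, WT 2 was the dimmest WT array. Both genes were lower on each slide: Cdhr1 had -3.79 on slide 1 and -4.84 on slide 2, and Samd4 -3.07 on slide 1 and -4.9 on slide 2, values that rest on background signal in EP2KO. Their windows of 250 bases before the start are shown because both signals fell below the level counted as measured, Cdhr1 on the minus strand at chr14:37098348-37098597 and the first of 2 Samd4 starts on the plus strand at chr14:46882715-46882964 (GRCm38.p6), with capitals as above.
Cdhr1: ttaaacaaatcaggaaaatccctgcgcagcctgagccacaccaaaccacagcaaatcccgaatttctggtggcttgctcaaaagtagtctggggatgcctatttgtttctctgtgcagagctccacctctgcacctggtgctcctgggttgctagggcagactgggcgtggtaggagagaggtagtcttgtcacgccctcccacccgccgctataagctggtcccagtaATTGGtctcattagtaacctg
Samd4, first start: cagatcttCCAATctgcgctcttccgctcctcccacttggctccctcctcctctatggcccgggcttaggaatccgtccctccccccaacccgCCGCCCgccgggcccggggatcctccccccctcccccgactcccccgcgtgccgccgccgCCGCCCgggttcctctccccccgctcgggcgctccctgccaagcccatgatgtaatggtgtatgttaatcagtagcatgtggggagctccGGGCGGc
The Cdhr1 window holds 1 CCAAT box, on the strand opposite to the one shown, and the Samd4 window 1 CCAAT box and 3 GC boxes. Their base composition differs, at 53.2% and 70.0% G and C.

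**Figure D2:**
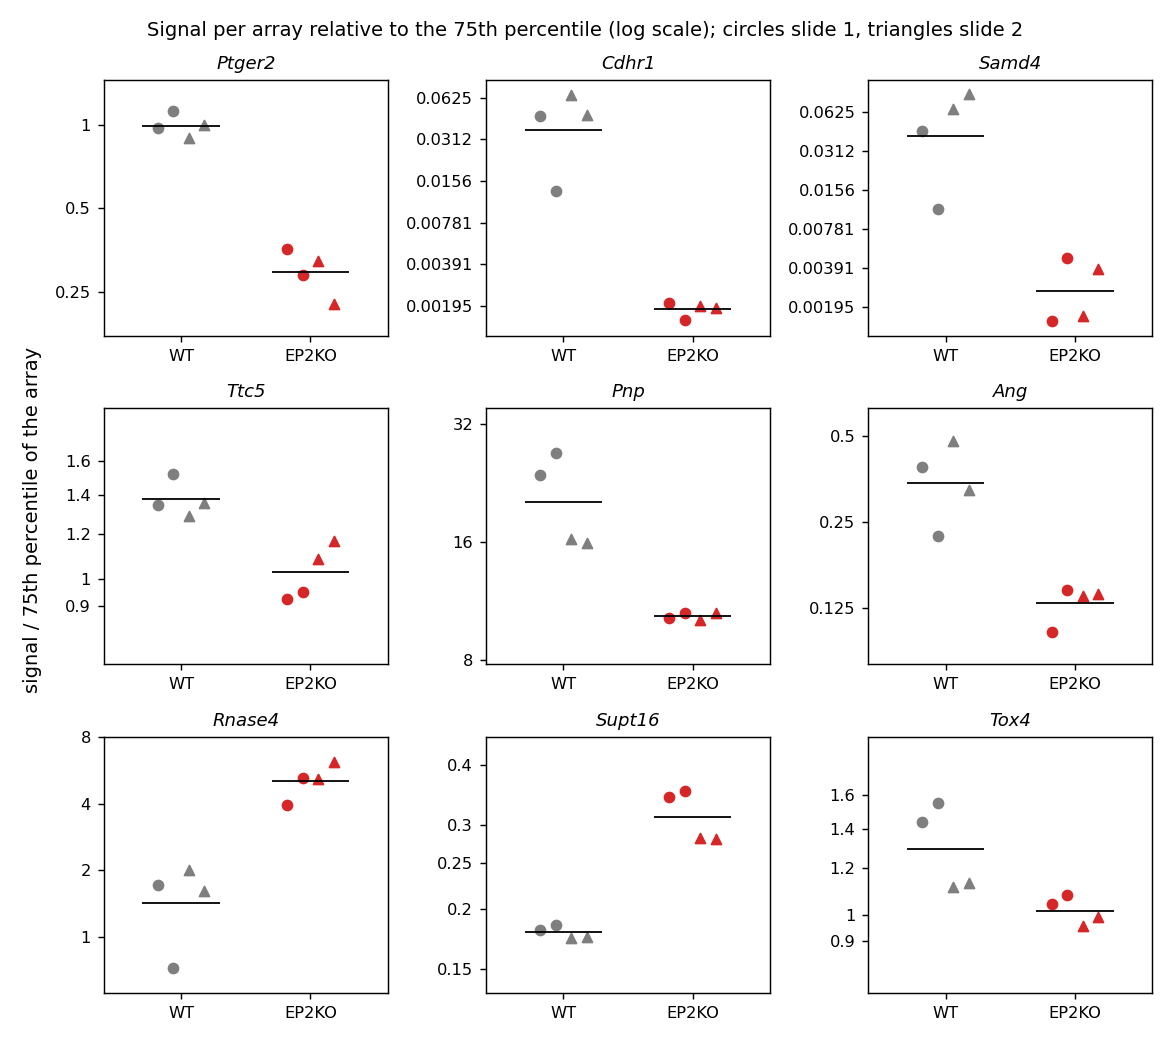
Signal on each array as a multiple of its 75th percentile (log axes that differ between panels) for Ptger2 and the 8 neighbours whose genotypes do not overlap; grey WT, red EP2KO, circles slide 1, triangles slide 2, bars the mean of log2 values (n = 4). Rnase4 and Supt16 lie higher in EP2KO, the other 6 neighbours and Ptger2 lower.

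Among enzymes of nucleoside metabolism and protein modification, Pnp was the member that did not overlap. Pnp, purine nucleoside phosphorylase, splits inosine and guanosine. It was at 23.8, 27.0, 16.3 and 16.0 in WT and at 10.3, 10.6, 10.1 and 10.6 in EP2KO. EP2KO arrays were close to each other while WT arrays differed by slide, and the difference was -0.96 ± 0.20, with -1.28 on slide 1 and -0.64 on slide 2. The adjacent copy Pnp2, not on the list, had -1.08 ± 0.25 with no overlap, and the probes may not separate these similar genes. Gch1, the first enzyme of tetrahydrobiopterin synthesis, a cofactor of nitric oxide synthases, was at 7.64, 9.52, 7.5 and 5.41 in WT and at 8.22, 8.55, 10.5 and 9.58 in EP2KO. Its difference was 0.31 ± 0.19, and its other probe gave 0.31; on slide 1 it was -0.03 and on slide 2 0.65. Osgep, a tRNA modification enzyme, was at -0.05 ± 0.16, and Ddhd1, a phospholipase, at 0.01 ± 0.37.

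Chromatin and transcription genes held a higher and a lower member with no overlap. Supt16, the large subunit of the histone chaperone FACT, was at 0.181, 0.186, 0.174 and 0.175 in WT and at 0.343, 0.352, 0.281 and 0.28 in EP2KO. The difference was 0.80 ± 0.13, a 1.74-fold higher signal, with 0.92 on slide 1 and 0.68 on slide 2, and WT arrays differed from each other by little. Supt16 had 1 probe, and with normexp background correction its difference was 0.40 and its genotypes overlapped. Tox4, a DNA-binding protein of a phosphatase complex, was at 1.44, 1.55, 1.11 and 1.13 in WT and at 1.04, 1.08, 0.954 and 0.99 in EP2KO. It had -0.35 ± 0.15 by its brightest probe but 0.18 by the other, whose genotypes overlapped, so the probes of Tox4 disagree in sign.

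Sall2, a zinc finger transcription factor and the last gene of the list, was at 0.101, 0.0542, 0.15 and 0.192 in WT and at 0.0357, 0.0695, 0.0285 and 0.0298 in EP2KO. It overlapped only through WT 2 and EP2KO 2 and had a difference of -1.56 ± 0.45, with -0.57 on slide 1 and -2.54 on slide 2. Without WT 2, and likewise without EP2KO 2, its genotypes did not overlap. The other 3 members of the group, Chd8, Hnrnpc and Zfp219, had -0.04, -0.03 and 0.25. For the methyltransferase genes the genotypes overlapped. Mettl3, the catalytic subunit of the m6A writer, had -0.21 ± 0.14 (0.19 by its other probe). Mettl17, a mitochondrial ribosome assembly factor, was at 0.403, 0.443, 0.432 and 0.521 in WT and at 0.207, 0.18, 0.524 and 0.442 in EP2KO. Its difference came from slide 1 (-1.13 on slide 1 and 0.02 on slide 2).

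Among the 5 DNA repair and related genes, the genotypes did not overlap for Ttc5 and overlapped for the other 4. Ttc5, a cofactor of p53, was at 1.35, 1.52, 1.29 and 1.36 in WT and at 0.927, 0.95, 1.09 and 1.17 in EP2KO. The difference was -0.42 ± 0.13 (-0.70 by its other probe, which overlapped). Tep1, a protein of the telomerase complex and of vault particles, was at 9.9, 16.1, 9.13 and 10.2 in WT and at 6.89, 7.57, 9.9 and 10.2 in EP2KO. Its difference of -0.37 ± 0.23 was made on slide 1 (-0.81, against 0.06 on slide 2), with WT 2 the highest array. Apex1, the main endonuclease at abasic sites, was at 2.58, 1.9, 2.86 and 2.76 in WT and at 2.42, 2.22, 1.89 and 1.61 in EP2KO (-0.31 ± 0.19). It overlapped through WT 2 alone, where it was lowest among WT, and had 0.07 on slide 1 and -0.69 on slide 2. Parp2, a poly(ADP-ribose) polymerase, had -0.21 ± 0.16. Ccnb1ip1, a ubiquitin ligase known from meiotic crossing over, was at 0.00895, 0.00473, 0.0128 and 0.0051 in WT and at 0.018, 0.0182, 0.0115 and 0.00867 in EP2KO. It was measured above background in 4 EP2KO samples but 1 WT sample and had 0.89 ± 0.39, a value that rests on background in WT and turned to -0.54 with normexp background correction.

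Genotypes overlapped for every gene of the ubiquitin, membrane traffic and cell division groups. In the ubiquitin and proteasome group (5 genes) differences ran from -0.24 to 0.32. Its largest was Cgrrf1, a RING finger protein, at 0.622, 0.636, 0.862 and 0.643 in WT and at 0.661, 0.669, 1.07 and 1.14 in EP2KO (0.32 ± 0.23). Among membrane traffic and autophagy genes (6) they ran from -0.21 for Cnih1, a cargo receptor of the endoplasmic reticulum, to 0.23 for Rab2b. Of the remaining genes, Socs4, a suppressor of cytokine signalling, had -0.24, the F-box protein Fbxo34 0.22 and the Pellino ligase Peli2 -0.06. Ktn1, a kinesin receptor, had -0.16, Ap5m1, an adaptor subunit, -0.18, the autophagy protein Atg14 0.08 and the exocyst subunit Exoc5 0.03. In the adhesion and signalling group, Arhgef40, a guanine nucleotide exchange factor, had 0.21, Tmem260 0.15 and Gmfb 0.03. Mapk1ip1l was at 1.82, 2.13, 2.49 and 2.72 in WT and at 2.25, 2.29, 3.11 and 3.56 in EP2KO. Its brightest probe gave 0.28 ± 0.21 and its other 2 probes -0.26 and -0.18, so no direction is given. Lgals3, galectin-3, which macrophages make in quantity, had 0.12 ± 0.27. Over all 14 members with several kept probes, 6 had probes of opposite sign.

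Fermt2 and Bmp4 went in opposite directions on the slides, as did the cell division genes Cdkn3 and Dlgap5. Fermt2, kindlin-2, which activates integrins in adherent cells, was at 0.218, 0.0259, 0.25 and 0.288 in WT and at 0.159, 0.301, 0.0577 and 0.0173 in EP2KO. Bmp4, a secreted growth factor of the TGF-beta family, was at 0.163, 0.041, 0.142 and 0.229 in WT and at 0.162, 0.378, 0.0299 and 0.0141 in EP2KO. Both were lowest on WT 2, EP2KO 3 and EP2KO 4. Fermt2 had 1.54 on slide 1 and -3.09 on slide 2, and Bmp4 1.6 on slide 1 and -3.14 on slide 2, so the pooled differences of -0.77 ± 1.07 and -0.77 ± 1.07 describe neither slide. Ndrg2, a protein linked to cell differentiation, was at 0.204, 0.0711, 0.253 and 0.443 in WT and at 0.123, 0.223, 0.216 and 0.0768 in EP2KO (0.46 on slide 1 and -1.38 on slide 2).

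Cdkn3, a phosphatase of cell cycle kinases, was between 0.0472 on EP2KO 3 and 0.521 on EP2KO 2. Dlgap5, a spindle protein, was at 0.103, 0.0347, 0.097 and 0.0282 in WT and at 0.128, 0.149, 0.0125 and 0.0161 in EP2KO. Cdkn3 had 1.25 on slide 1 and -1.59 on slide 2, and Dlgap5 1.21 on slide 1 and -1.88 on slide 2; the other Dlgap5 probe had 1.89 and -0.83. Wdhd1, a replication factor of the same group, stayed at 0.10 ± 0.16.

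Marker lists moved with Fermt2, Bmp4, Cdkn3 and Dlgap5, but Wdhd1 did not follow the dividing-cell list. Fibroblast and mesothelial markers, 10 of 10 measured and among them Col1a1 and Msln, summed to 85.8, 19.4, 131 and 141 in WT and to 55.2, 90.4, 41.0 and 16.9 in EP2KO. The sum was lowest on EP2KO 4 and WT 2, the arrays with the lowest Fermt2. Dividing-cell markers, 8 of 8 measured with Mki67 and Top2a, summed to 16.5, 7.5, 18.5 and 6.01 in WT and to 32.6, 35.8, 2.92 and 3.31 in EP2KO. Like Cdkn3, the sum was highest on EP2KO 2 and EP2KO 1 and lowest on EP2KO 3 and EP2KO 4. The part of stromal or dividing cells in the differences of the neighbours was not tested.

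**Figure D3:**
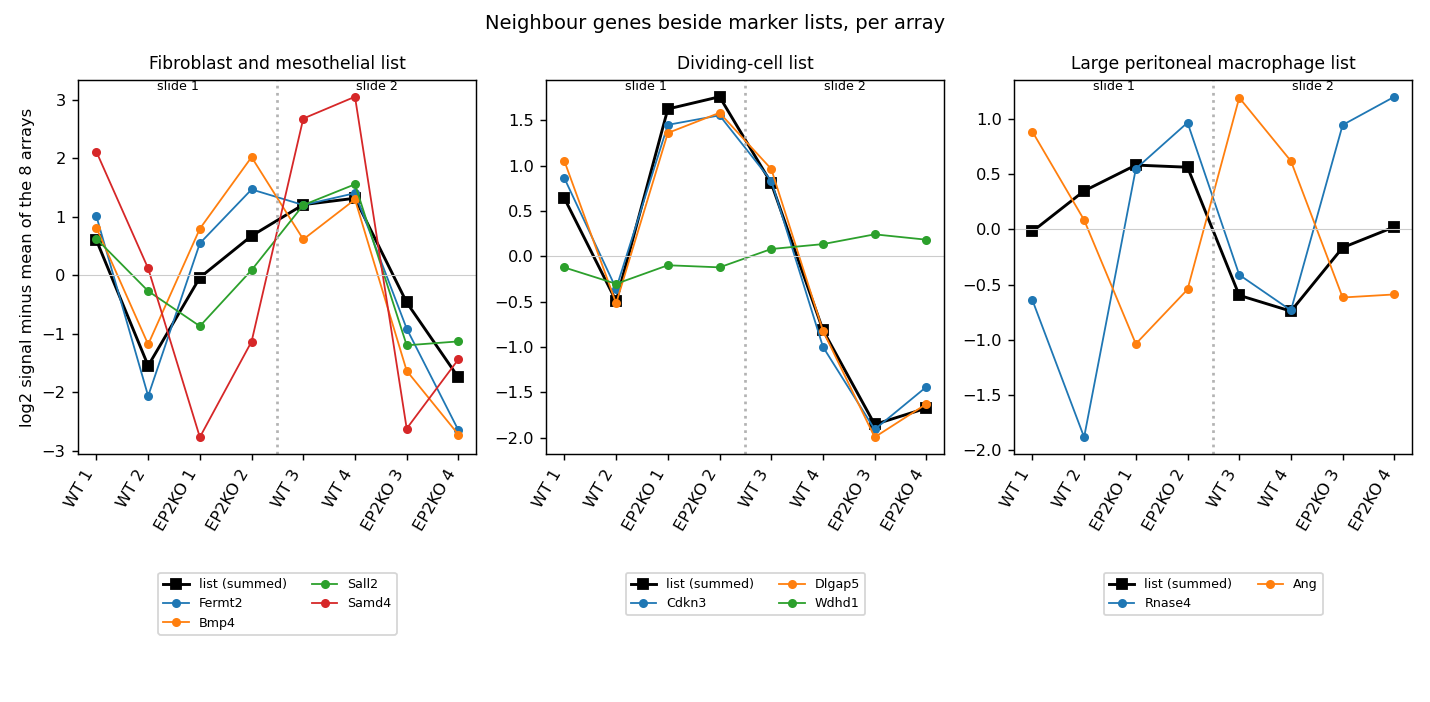
Log2 signal of named neighbours (coloured) and of the summed marker list (black) on each array, minus the mean of the 8 arrays; the dotted line parts slide 1 from slide 2, and lines only join points of 1 series. Fermt2 and Bmp4 lie low on WT 2, EP2KO 3 and EP2KO 4 with the fibroblast list, and Cdkn3 and Dlgap5 lie close to the dividing-cell list. Other drawn genes depart from their list. Samd4 lies low on all EP2KO arrays. Wdhd1 is higher on slide 2 by 0.32, where the dividing-cell list has a median of -1.68. In the right panel, WT 2 has the highest WT sum of the large peritoneal macrophage list but the lowest WT Rnase4 and Ang.

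Genotype differences of the list were set side by side on the slides. Of the 47 genes, 23 had the same sign on both, where 36.3% of all features did. All 8 genes with no overlap had the same sign, which follows from no overlap. The interaction of genotype and slide, a comparison the choice of members did not use, was tested with limma over all features: 0 of 47 members passed an adjusted p of 0.05, where 0.0145% of all features did. At an unadjusted p under 0.05 there were 13 members, beside 21.1% of all features. The largest interactions were those of Bmp4 (-4.73 ± 1.08, limma adjusted p = 0.123) and Fermt2 (-4.62 ± 1.47, adjusted p = 0.166). Without WT 1, 4 members passed (Bmp4, Fermt2, Tep1 and Cdhr1), beside 6.95% of all features; the value of Cdhr1 rests on background signal in EP2KO. For Rnase4 the interaction was -0.37 ± 0.57 and for Ang -0.23 ± 0.47, neither past the threshold.

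**Figure D4:**
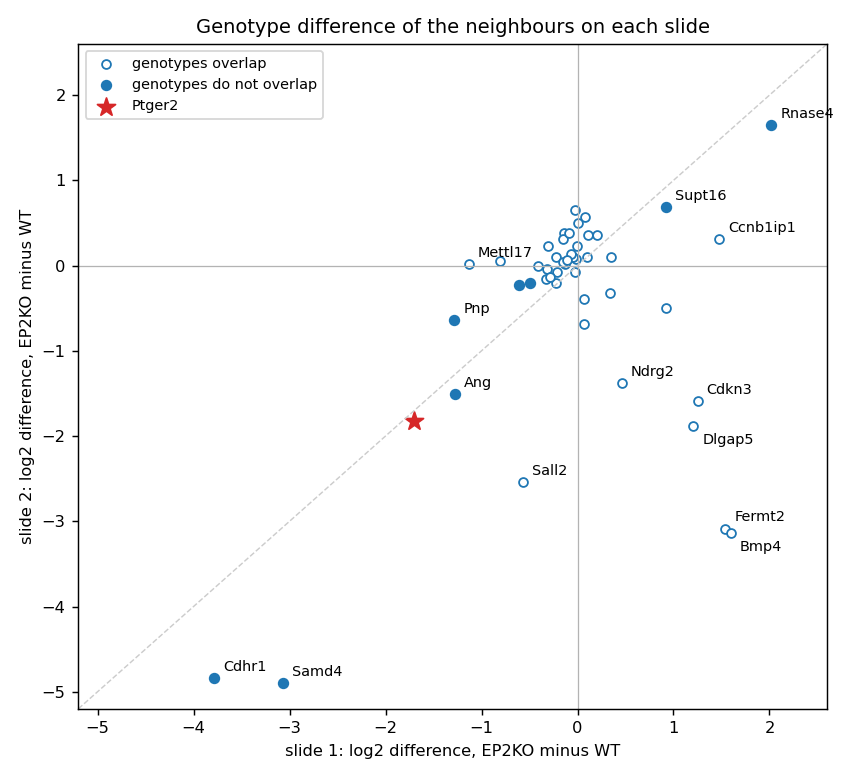
Log2 difference, EP2KO minus WT, on slide 1 (horizontal) and slide 2 (vertical), 2 arrays per genotype on each, for the 47 measured neighbours and Ptger2; the dashed line marks equal differences. Ang, Rnase4 and Supt16 lie near it, Cdhr1 and Samd4 are lower on both slides and more so on slide 2, and Fermt2, Bmp4, Cdkn3 and Dlgap5 lie at lower right.

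Slides differed for 14 of the 47 neighbours in the fit with genotype as a term (limma, adjusted p of 0.05), beside 43.2% of all features. Of these, 13 were higher on slide 2 (25.1% of all features) and Osgep was lower (18.2% of all features). Lgals3 was higher on slide 2 by 0.62 ± 0.14, limma adjusted p = 0.0124. Gmfb, a regulator of actin branching, was higher by 0.51 ± 0.11, limma adjusted p = 0.00879, and Rab2b, a Golgi GTPase, by 0.45 ± 0.10, limma adjusted p = 0.0118. Osgep had -0.30 ± 0.10, limma adjusted p = 0.0437. Of the 8 genes whose genotypes did not overlap, 0 passed in this comparison. Each genotype spans both slides, so a large slide shift makes overlap more likely. The count thus follows in part from how the 8 were picked, and nothing is read from it. The slide difference was 0.30 for Ang, 0.50 for Rnase4 and -0.19 for Supt16. Marker lists had lower medians on slide 2 (no test): -3.18 for B cells, -2.56 for mast cells and -2.26 for T and NK cells. They were -2.23 for neutrophils, -2.22 for large peritoneal macrophages, -1.68 for dividing cells, -0.38 for fibroblasts and mesothelium and -0.10 for macrophages. The part of cell content in the slide differences of the neighbours was not tested. The count for the list fell to 1 with normexp background correction and to 5 with no filter on low signals. The shares of all features under these settings are not given here, so the falls are not read as particular to the list.

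Beyond the list, the other coding genes of chromosome 14 were taken by position, less the listed members. Those members were chosen with their genotype differences known, so the genes left over also depend on that choice. Of the 24 other measured coding genes between Cdhr1 and Sall2, 2 did not overlap, Pnp2 and 2610528A11Rik (-1.46 ± 0.42), the latter lying between Cdhr1 and Ghitm; both were lower. Ero1a, an oxidase of the endoplasmic reticulum and the nearest of them after Ptger2, was at 0.17. Outside that span 7 of 414 measured coding genes of the chromosome did not overlap (1.69%), and on other chromosomes 186 of 13526 (1.38%). The median absolute difference was 0.12 outside the span and 0.11 on other chromosomes, beside 0.22 for the list and 0.26 for the 24. No test was made of these figures, and nothing is read from them.

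Profiles over the 8 arrays were compared for 4 members among 14474 named genes, as a description over arrays that share slide and genotype. Closest to Cdhr1 were Gpd1 (r = 0.967), Ang (r = 0.964), Arntl (r = 0.961), Samd4 (r = 0.951) and Nat8f5 (r = 0.945). Closest to Samd4 were Ang (r = 0.956), Cdhr1 (r = 0.951), Pdgfb (r = 0.946), Fam205a2 (r = 0.94) and Sall2 (r = 0.938). Ang stood in both lists, and Cdhr1 and Samd4 in each other's. For Rnase4 they were Vsig4 (r = 0.971), Clec1b (r = 0.941), Sobp (r = 0.929), P2ry2 (r = 0.922) and Zfp36l3 (r = 0.914), and for Supt16 Man2a1 (r = 0.923), Nup133 (r = 0.917), Vnn3 (r = 0.909), Zfp36l3 (r = 0.902) and Frmpd1 (r = 0.901). Those of Rnase4 and Supt16 held no other gene of the list. Genotype was not removed from these profiles, and the EP2KO values of Cdhr1 and Samd4 rest on background signal. Likeness among listed genes lower in EP2KO thus follows in part from how they were chosen, and nothing is read from it.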

How the data were processed

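RNA of 8 macrophage samples, 4 per genotype, had been hybridised to 1-colour Agilent arrays. Scanner files as deposited give an intensity per spot; per the file headers they were extracted with Feature Extraction 10.7.1.1, and the processed signal is background-corrected but not scaled between arrays, whereas version 9.1 stands in the submitters' processing notes. The deposited series table held the same values (largest log2 difference 0).

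Control spots (1377 of 44397 per array) were dropped, outlier-flagged spots set missing, spots of 1 probe averaged, and each array's 75th percentile subtracted from log2 signals. Probes were named through RefSeq transcripts of GRCm38.p6 (27508 of 39429); the arrays' design states mm9, so the gene table served for names and order only, and coordinates belong to RefSeq's GRCm38.p6 promoter table. A probe was kept if well above background on all arrays of 1 genotype, and a gene took its brightest kept probe. Features with a missing value were fitted on the remaining arrays (31 of 20736; 0 members). For a probe dim on every array of 1 genotype the fold is a bound, set against the larger, on each array, of its own signal and the smallest signal still well above background.

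Genotype, slide and their interaction were tested with limma 3.58.1 in R 4.3.3 (lmFit, eBayes, Benjamini-Hochberg over all features, two-sided, 0.05). The genotype fits were also run on simulated data, with noise independent between arrays and the same genotype effect on both slides. The real arrays can differ from that setting, so nothing is read from that run. The members, gene groups and marker lists were chosen with earlier results of these data known. The result of 1 marker list is not reported here. Named genes were the 20 measured members with the largest absolute difference and the 5 nearest to Ptger2, with others of a group by range; genes outside the list and Cdkn3, Wdhd1 and further members given by a difference alone were added after values had been seen. Deviations from the group means correlated between arrays of equal number (r over features 0.74, 0.12, 0.55 and 0.43), but each pair also shares a slide. Alternatives covered background, scaling, filter, probe choice, blocks, each slide and each array left out; normexp (offset 50) used the median spot signal, the column the files hold, in place of the planned mean.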

Additional observations from a re-analysis of the deposited data

Results flagged for a closer look

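Some single arrays lay far from the other 3 of their genotype, measured as a ratio: the distance to the next array divided by the group's full range. For Fermt2 WT 2 was the lowest array of its genotype, at 0.0259 against 0.218 to 0.288 on the other 3 (ratio 0.885). For Cgrrf1 WT 3 was the highest array of its genotype, at 0.862 against 0.622 to 0.643 on the other 3 (ratio 0.899). For Fbxo34, an F-box protein, WT 2 was the highest array of its genotype, at 1.67 against 1.46 to 1.49 on the other 3 (ratio 0.832). For Ang EP2KO 1 was the lowest array of its genotype, at 0.103 against 0.137 to 0.145 on the other 3 (ratio 0.852). In all, 96 groups were looked at and 4 passed; about 4.8 would by chance.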

How the results depend on the processing

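The 8 neighbours whose genotypes did not overlap were counted again under each of the alternatives; this count was added after seeing the data. It ran from 6 with probes well above background on all 8 arrays, which leaves out Cdhr1 and Samd4, to 12 without WT 2, and was 10 after quantile normalization. In the main setting 1.39% of all features did not overlap, and that share was not counted again under the alternatives. Leaving out 1 array can only add features with no overlap, so nothing is read from the higher counts. Supt16 overlapped with normexp, and Tox4 with the median as scale and with the mean of its probes.

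The median difference of the list, -0.05, was 0.019 on slide 2 alone and -0.14 with normexp, which put the median of all features at -0.12; leaving out 1 array gave -0.12 to -0.05. The number of features called between the genotypes was 2. It was 4 with the slide as a block, 0 with the replicate block, 0 on slide 1 alone and 341 on slide 2 alone. Leaving out 1 array gave 0 to 4 (0 without WT 1, WT 3, EP2KO 2, EP2KO 3 or EP2KO 4, and 4 without EP2KO 1). No member was called in the main fit, so the replicate block had no member call to change. The 14 neighbours called between slides, beside 43.2% of all features in the main fit, became 1 with normexp and 5 with no filter. Without 1 array there were 5 to 17 (6 without WT 1, 5 without EP2KO 1 or EP2KO 2, 7 without EP2KO 3 or EP2KO 4). Shares of all features under these alternatives are not given here, so the shifts are not read as particular to the neighbours. Members called for the interaction numbered 0 to 4 without 1 array, 4 of them without WT 1. The cause of these shifts was not tested. Where 1 array of a genotype is left on a slide, it is assumed to vary like the others. Of 25 named genes, Ptger2, Cgrrf1, Cdhr1, Samd4, Ttc5, Pnp, Ang, Rnase4, Supt16, Tox4, Sall2 and Gnpnat1 kept their direction in every alternative run. Signals of Cdhr1 and Samd4 in EP2KO, and of Ccnb1ip1 in WT, are limited by background.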
